A study of Mus musculus with 66 samples.

Results

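The squamous tissue that lines the distal colon after chemical injury was compared with the anal tissue of the same animals. C57Bl/6 mice, bought at 6 weeks of age, received 3% dextran sulfate sodium (DSS), which damages the colonic mucosa, for 6 days from day 0. From each of 9 mice, 3 dissected at each of days 9, 14 and 20, a section labelled squamous neo-epithelium of colon and a section labelled anus were sequenced. These 18 of the 66 libraries of the series were chosen by section and day alone and paired by mouse number. Rectum of the same 9 mice and anus of 4 uninjured mice of day 0 were used as reference levels. All 9 injured mice were therefore off DSS when dissected, and the labels name no allele beyond the strain. Each library is bulk RNA from a dissected section, so fewer cells of a type and less RNA per cell cannot be told apart.

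The anal canal is lined by stratified squamous epithelium, in which basal cells divide on a basement membrane and their daughters differentiate as they move to the surface. Toward the perianal skin this epithelium becomes epidermis, which builds a cornified envelope and carries hair and sebaceous glands, whereas the upper canal resembles the non-keratinized lining of the mouth or oesophagus. Above it, the rectum has a simple columnar epithelium of colonocytes and goblet cells, and the junction between them is known as the anorectal transition zone. Keratins mark these states: Krt5 and Krt14 in basal squamous cells, Krt4 and Krt13 in mucosal squamous layers, Krt1 and Krt10 in epidermis, and Krt8, Krt18, Krt19 and Krt20 in simple epithelium.

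Levels are TPM, the transcript abundance that the table's pipeline reports, a length-adjusted share of a library's RNA, so they can also be compared between genes. The deposited table holds no read counts and the depth of each library is therefore unknown. Between 12691 and 13266 genes reached 1 TPM in the neo-epithelial libraries and between 12817 and 13712 in the anal ones. The squamous label of the neo-epithelium held against the markers: 12 basal squamous genes summed to 7168 to 14380.0 TPM there, to 3981 to 9717 TPM in anus and to 176 to 795 TPM in rectum. Krt14 and Krt5, with means of 7585 and 2290 TPM in neo-epithelium, made up most of the neo-epithelial sum. The sections were not made of one tissue, however. Skeletal muscle genes summed to 4461 to 18204 TPM in anus, although the study's text says that the muscle layer was dissected away, and colonocyte genes reached up to 9312 TPM in neo-epithelium.

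Differences below are log2(TPM + 1) of neo-epithelium minus anus, fitted with limma with the mouse as a block, and a gene was called at a Benjamini-Hochberg adjusted p under 0.05 over the 13256 genes that passed a filter of 1 TPM in at least 9 of the 18 libraries. Over the 9 mice, 7667 genes were called, 57.8% of those tested: 5137 (38.8%) were higher in neo-epithelium and 2530 (19.1%) lower. At least a 2-fold difference as well was met by 1157 higher and 943 lower genes. The median over all genes tested was 0.18, and rescaling with TMM factors brought it to 0.03 and the calls to 3907 higher and 3565 lower. Because TPM values are shares of a library, genes of other tissues bear on every value. Rescaling without mitochondrial and skeletal muscle genes gave 5113 higher and 2533 lower, and also leaving out the epidermal, hair, sebaceous, colonocyte and goblet lists gave 4829 and 2619. The added 1 TPM makes differences of low genes smaller than their fold. Of the genes called higher, 55.7% had a mean in rectum above that in neo-epithelium, against 48.4% of all genes tested. Of those called lower, it was 39.4%.

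**Figure D1:**
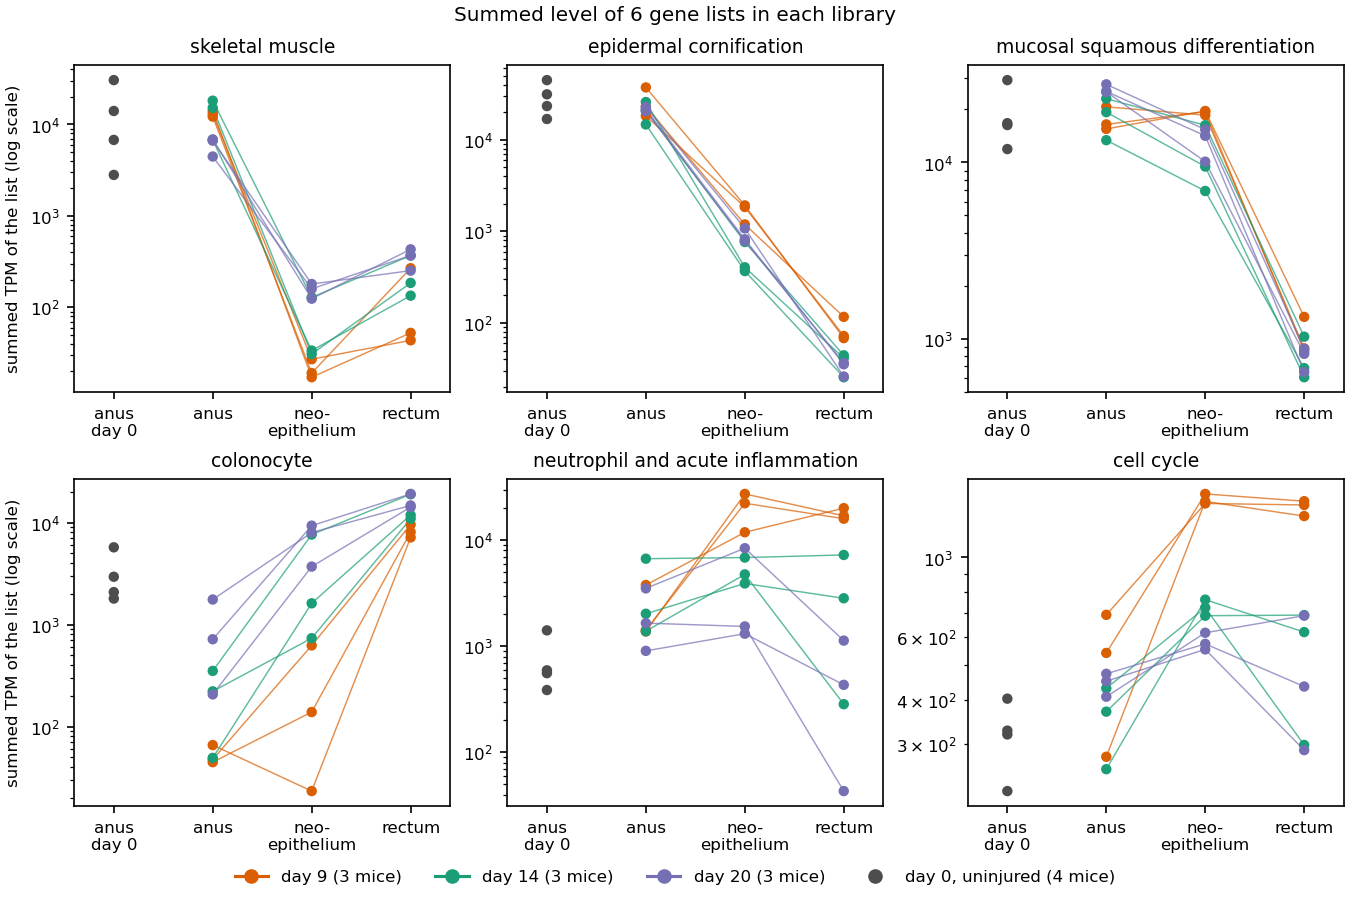
Summed TPM (log scale) of 6 gene lists in each library of uninjured anus (4 mice), anus, neo-epithelium and rectum (9 mice each). Lines join sections of 1 mouse and colours mark the day. Skeletal muscle and epidermal sums are lower in neo-epithelium than in anus in all 9 mice, colonocyte sums lie between those of anus and rectum in 8 of 9, and cell cycle sums are above the anal ones in all 9.

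Skeletal muscle genes made up the largest falls. All 22 members of the list had a lower mean in neo-epithelium. Of these, 20 passed the filter on low values and Myh4 and Ryr1 did not. All 20 were called lower, but 12 of them reached 1 TPM in no neo-epithelial library and so passed through the anal libraries, which sets their direction beforehand, and their median of -7.29 is given as a description only. The deepest was Tnnc2, fast skeletal troponin C, at 0 to 0.398 TPM in neo-epithelium (listed at 0 in 7 of 9 libraries) against 436 to 1959 TPM in anus. Its difference was -9.99 ± 0.20 (SE), adjusted p = 8.0e-11. Of the 12 largest falls with the same sign in all 9 mice, 10 were muscle contraction or muscle metabolism genes: Tnnc2, Tnnt3, Ckm, Myl1, Mylpf, Myl3, Acta1, Tnni2, Myh8 and Mb. The other two were Sln, which regulates the muscle calcium pump, and Car3, a carbonic anhydrase of muscle and fat. Pvalb, the calcium buffer of fast fibres, was listed at 0 in every neo-epithelial library and stood at 33.9 to 232 TPM in anus. Thus the defining fast-fibre genes were at or near 0 in neo-epithelium.

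Other tissues of the perianal region were also lower in neo-epithelium. In the adipocyte list, all 10 members had a lower mean, and 7 of the 8 that passed the filter were called lower, where 19.1% of all genes tested were. Of the 8, 5 reached 1 TPM in under 5 neo-epithelial libraries, 1 of these in none, so the filter bears on their direction. Car3, which is also a muscle gene, was at 0.0926 to 24.8 TPM in neo-epithelium and 218 to 1217 TPM in anus. In the hair follicle list, 16 of 17 members had a lower mean. Of the 17, 8 did not pass the filter, and 7 of the other 9 were called lower. For 6 of these 9 no neo-epithelial library reached 1 TPM, so the filter itself set their direction. Krt25 and Krt71, keratins of the inner root sheath, stood at 4.22 to 262 TPM and 6.45 to 315 TPM in anus, where Krt25 was listed at 0 in all 9 neo-epithelial libraries and Krt71 reached at most 0.0835 TPM. In the sebaceous list 10 of 11 members had a lower mean, and 9 of the 10 that passed were called lower, with 5 of them at 1 TPM in no neo-epithelial library. Awat1, an acyltransferase of sebaceous wax, differed by -6.91 ± 0.27 (SE), adjusted p = 7.9e-09, and Scd1, a fatty acid desaturase, by -5.13 ± 0.24 (SE), adjusted p = 3.0e-08. Hair follicle genes also varied widely between the anal libraries, from 29.8 TPM in mouse 16 to 1569 TPM in mouse 17. Smooth muscle did not follow skeletal muscle: 2 of 9 genes were lower (Des and Synm, intermediate filament genes that striated muscle shares or uses) and 7 were not called, with a median of 0.21 that turned to -0.01 without mouse 11 and -0.07 without mouse 19. Without mouse 17, whose anal library held 4604 TPM of smooth muscle genes against a median of 267, 2 were higher and 2 lower.

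Epidermal cornification was lower in neo-epithelium throughout. All 33 genes of the list were tested and all 33 were lower, with a median of -5.57 (range -7.22 to -1.14). However, 19 of them reached 1 TPM in under 5 neo-epithelial libraries and so passed the filter mainly through the anal libraries. For 7 of these no neo-epithelial library reached 1 TPM, so the filter itself set their direction. The counts called and the median are therefore given as a description only. All 33 were also called lower on each day, where 13.2% of all genes tested were at day 9 and 13% at both day 14 and day 20. Their sum was 369 to 1919 TPM in neo-epithelium, 14685 to 37226 TPM in anus and 25.6 to 117 TPM in rectum. The neo-epithelial sum was thus far below the anal one but above the rectal one in each mouse. Krt10, the suprabasal type I keratin of epidermis (chr11:99385254-99389364, minus strand, GRCm38), ranged between 4.13 and 176 TPM in neo-epithelium (median 27.3) and between 629.7 and 2516 TPM in anus (median 1264). Krt10 stood at 27.3, 101 and 176 TPM at day 9, 4.13, 6.45 and 13.5 TPM at day 14, and 26.8, 34.0 and 58.9 TPM at day 20 in neo-epithelium, so the day 14 mice were lowest. Its partner Krt1 differed by -6.88 ± 0.53 (SE), adjusted p = 1.4e-06.

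Genes of the cornified envelope and of shedding were lower too. Loricrin (Lor), its main structural protein, ranged between 0.233 and 33.3 TPM in neo-epithelium (median 3.27) and between 356 and 874 TPM in anus (median 551), and the groups did not overlap. Of all genes tested, 11.4% did not overlap between the sections, 4.62% being higher in neo-epithelium and 6.73% lower. Flg, whose product bundles keratin in the granular layer, differed by -5.99 ± 0.58 (SE), adjusted p = 8.7e-06, and Sbsn, a secreted suprabasal protein, by -5.57 ± 0.22 (SE), adjusted p = 8.6e-09. Lce1f, of the late cornified envelope family, was at 0 to 3.90 TPM in neo-epithelium against 152 to 489 TPM in anus. The Lce1 copies are near-identical, so the level of 1 copy is uncertain. Klk7, a protease that cuts corneodesmosomes in shedding skin, was at 0 to 1.09 TPM in neo-epithelium and 67.4 to 306 TPM in anus. Krtdap and Calm4 were the most abundant of those named in anus, at medians of 9521 and 3807 TPM, and they kept medians of 297 and 61.2 TPM in neo-epithelium.

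Many of these genes lie together in the epidermal differentiation complex, the block of chromosome 3 that runs from S100a1 to S100a10 (chr3:90511034-93564643, GRCm38, GENCODE vM21). Of 68 genes tested in that block, 46 were lower, 12 higher and 10 not called, where 19.1% of all genes tested were lower and 38.8% higher. Some of the lower ones passed the filter only through the anal libraries, which sets their direction beforehand. Gm5849 and Lce1m, for example, had neo-epithelial means of 0 and 0.0102 TPM. The higher ones included S100a9, a calcium-binding protein of neutrophils and stressed epithelium, and 3 near-identical Sprr2a copies whose single levels are uncertain. In the keratin clusters, 9 of 17 tested type I genes on chromosome 11 were lower and 3 higher. In the type II cluster on chromosome 15, which also holds Krt18, 10 of 18 were lower and 6 higher. Among the lower ones, Krt25, Krt27, Krt34, Krt71, Krt2 and Krt77 had neo-epithelial means of at most 0.0472 TPM, so the filter itself set their direction. The counts of lower genes in the 3 clusters are therefore given as a description only. The lower keratins were those of epidermis and hair and the mucosal keratins Krt4 and Krt78 among others, and the 9 higher ones were Krt5, Krt14, Krt6a, Krt7, Krt8, Krt18, Krt19, Krt20 and Krt84.

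The sequences before the start site of 4 of these genes are shown because they stand for states that separated in the comparison: epidermal Krt10, which was lower, mucosal squamous Krt13 and Sprr3, of which the first was not called over the 9 mice and the second was lower, and simple epithelial Krt18, which was higher. They are the 250 bases upstream of the RefSeq start (GRCm38.p6), 5′ to 3′, at chr11:99389365-99389614, minus strand, for Krt10, chr11:100121567-100121816, minus strand, for Krt13, chr3:92458721-92458970, minus strand, for Sprr3 and chr15:102027966-102028215, plus strand, for Krt18. For Krt18 the RefSeq start is 36 bases from that of its most abundant transcript. Capitals mark matches to 4 short motifs on either strand: TATAAA, the AP-2 motif GCCNNNGGC, the AP-1 motif TGANTCA and the Grainyhead motif AACCNGTT.
Krt10: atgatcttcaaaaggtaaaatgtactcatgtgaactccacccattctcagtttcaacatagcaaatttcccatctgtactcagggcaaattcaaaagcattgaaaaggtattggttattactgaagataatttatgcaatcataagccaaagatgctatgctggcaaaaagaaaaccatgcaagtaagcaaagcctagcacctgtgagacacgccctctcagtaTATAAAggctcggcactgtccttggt
Krt13: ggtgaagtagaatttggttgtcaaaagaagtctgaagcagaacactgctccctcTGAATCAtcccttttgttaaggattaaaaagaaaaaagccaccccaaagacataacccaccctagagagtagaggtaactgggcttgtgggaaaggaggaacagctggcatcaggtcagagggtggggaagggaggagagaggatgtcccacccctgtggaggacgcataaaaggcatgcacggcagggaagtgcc
Sprr3: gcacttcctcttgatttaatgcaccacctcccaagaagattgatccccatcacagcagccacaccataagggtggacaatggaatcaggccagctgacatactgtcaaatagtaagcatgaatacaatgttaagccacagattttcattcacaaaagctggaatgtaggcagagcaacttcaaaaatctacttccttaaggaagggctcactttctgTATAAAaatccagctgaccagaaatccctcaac
Krt18: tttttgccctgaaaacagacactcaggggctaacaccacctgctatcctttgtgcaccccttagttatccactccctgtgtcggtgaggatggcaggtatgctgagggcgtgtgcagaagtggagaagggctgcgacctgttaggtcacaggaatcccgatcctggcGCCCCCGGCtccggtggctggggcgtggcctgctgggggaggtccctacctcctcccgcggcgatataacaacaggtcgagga
Krt10 and Sprr3 hold TATAAA beginning 26 and 33 bases before the start, Krt13 an AP-1 match beginning 196 bases before it and Krt18 an AP-2 match beginning 83 bases before it. Across 27025 RefSeq promoters of this length, 13.0% held TATAAA, 13.6% the AP-2 motif, 6.87% the AP-1 motif and 1.71% the Grainyhead motif. AP-1 matches stood in 7 of 15 promoters found for the mucosal squamous list, in 6 of 27 of the epidermal list and in 1 of 12 of the simple and transition zone list. TATAAA stood in 7 of 15, 8 of 27 and 3 of 12 of these, the AP-2 motif in 1 of 15, 1 of 27 and 3 of 12, and the Grainyhead motif in 0 of 15, 1 of 27 and 1 of 12. The matches are a description of these letters, not of binding.

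**Figure D2:**
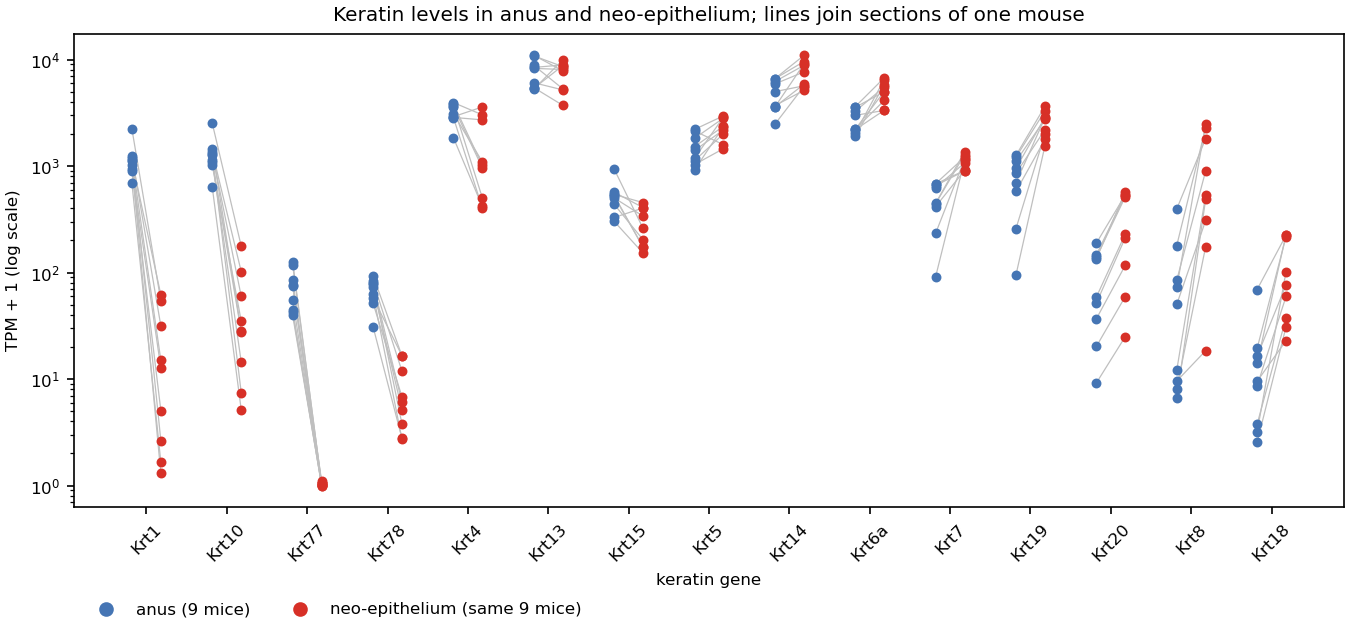
TPM + 1 (log scale) of 15 keratin genes in anus (blue) and neo-epithelium (red), with lines joining the sections of each of 9 mice. Krt1, Krt10, Krt77 and Krt78 do not overlap between sections and are lower in neo-epithelium, Krt13 overlaps, and Krt7 and Krt19 do not overlap and are higher in neo-epithelium.

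Basal squamous genes were present in both sections at similar levels, with exceptions. Krt14, the basal type I keratin, ranged between 5129 and 10925 TPM in neo-epithelium (median 7651) and between 2468 and 6611 TPM in anus (median 4998), higher in 9 of 9 mice (0.67 ± 0.12 (SE), adjusted p = 6.2e-04). Its type II partner Krt5 differed by 0.65 ± 0.15 (SE), adjusted p = 0.004 and was higher in 8 of 9. Krt15, a keratin of quiescent basal cells, was lower (-0.91 ± 0.21 (SE), adjusted p = 0.0032). Of all genes tested 38.8% were higher and 19.1% lower, with a median of 0.18. Of the 12 basal genes 5 were higher and 2 lower with a median of 0.16, which is near that background. With TMM factors it was 4 higher and 5 lower with a median of 0.01, so the list's balance depends on the scaling. Igfbp2, a binding protein of insulin-like growth factors, was much lower, at 0.356 to 3.03 TPM in neo-epithelium against 69.7 to 162 TPM in anus.

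The mucosal squamous list split by gene and by day. Of 19 genes tested, 1 was higher (Tgm1, a crosslinking enzyme of the envelope, 0.42 ± 0.14 (SE), adjusted p = 0.024, a call lost with TMM factors at an adjusted p of 0.157), 13 were lower and 5 were not called, with a median of -1.48. Krt13 was among the most abundant genes of both sections, between 3722 and 9928 TPM in neo-epithelium (median 8075) and between 5276 and 10978 TPM in anus (median 8267), and its difference over the 9 mice was -0.07 ± 0.17 (SE), adjusted p = 0.73. Ecm1 and Mal, further mucosal differentiation genes, gave 0.39 (adjusted p = 0.12) and 0.53 (adjusted p = 0.08). Late members were lower: Ivl, the envelope precursor involucrin, differed by -2.52 ± 0.15 (SE), adjusted p = 1.9e-07, and Krt78 by -3.33 ± 0.26 (SE), adjusted p = 1.6e-06. Endou, an endoribonuclease, differed by -4.27 ± 0.26 (SE), adjusted p = 2.3e-07, and Gsdmc, a gasdermin, by -3.91 ± 0.27 (SE), adjusted p = 5.9e-07. None of those 4 overlapped between the sections in TPM, as for 6.73% of all genes tested.

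Transcription factors of squamous tissue went in both directions, more often lower than higher. Trp63, the master regulator of stratified epithelia, had between 18.1 and 49.0 TPM in neo-epithelium (median 29.4) and between 29.7 and 50.6 TPM in anus (median 38.6), and its difference of -0.33 was not called (adjusted p = 0.14) but was lower with TMM factors (-0.50, adjusted p = 0.0176). Of 18 factors tested, 4 were higher and 8 lower, where 38.8% and 19.1% of all genes tested were. For 2 of the 18 no neo-epithelial library reached 1 TPM, so the filter itself set their direction. The higher ones included Klf5 (0.81 ± 0.15 (SE), adjusted p = 9.6e-04), Pitx1 (0.55 ± 0.18 (SE), adjusted p = 0.019) and Sox2 (0.63 ± 0.23 (SE), adjusted p = 0.033), and the Sox2 call was lost with TMM factors (adjusted p = 0.0737). Klf5 is a factor that both basal squamous and crypt epithelium express. Lower were Tfap2c (-1.59), Barx2 (-1.36), Hopx (-1.32), Grhl1 (-1.13), Tfap2a (-1.09) and Ovol1 (-1.03) among others. Grhl1, Ovol1 and Hopx act in the differentiating layers of epidermis and Tfap2a and Tfap2c in skin ectoderm.

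**Figure D3:**
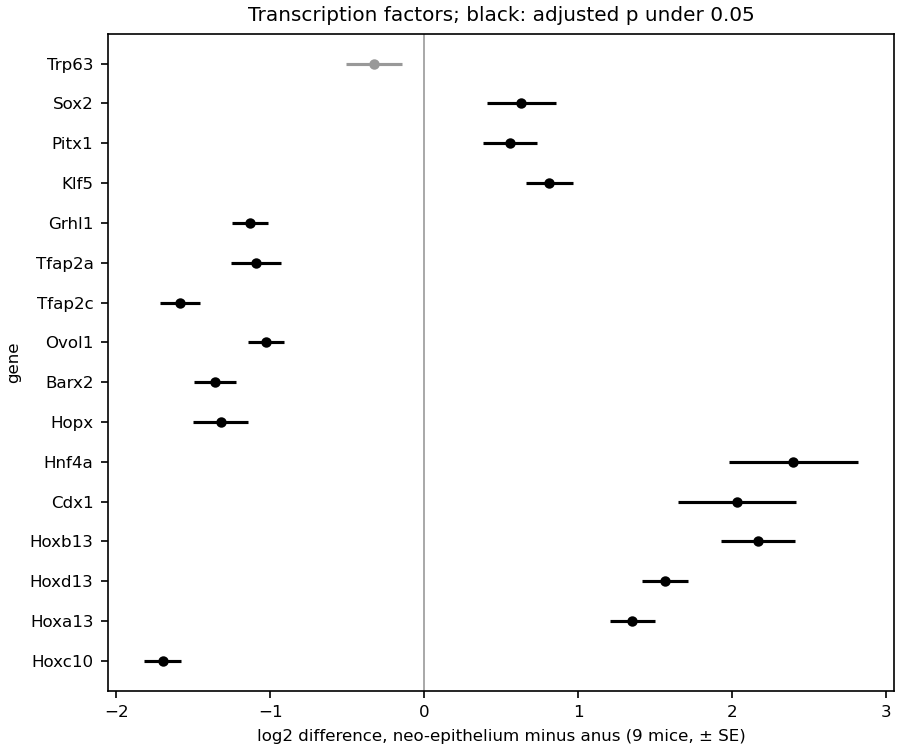
Log2 difference of 16 transcription factors, neo-epithelium minus anus over 9 mice, with its standard error. Black points were called at an adjusted p under 0.05. Hnf4a, Cdx1, Hoxb13, Hoxd13 and Hoxa13 lie above 0, whereas Hoxc10 and 6 squamous factors lie below -1.

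Simple epithelial genes were higher in neo-epithelium than in the anus of the same mice, and this depended on the anal reference. Of 16 tested genes of the simple and transition zone list, 11 were higher and 1, Krt23, lower (median 1.56), and against the uninjured anus 4 were higher and 1 lower (median 0.56). Of all genes tested 42.4% were called against the uninjured anus, 28.1% higher and 14.2% lower, so 4 of 16 is at the background. Krt8 (chr15:101996698-102004482, minus strand) ranged between 17.5 and 2473 TPM in neo-epithelium (median 529.6) and between 5.68 and 394 TPM in anus (median 49.2), with 17.5, 174 and 488 TPM at day 9, 308, 529.6 and 2473 TPM at day 14, and 900.1, 1805 and 2296 TPM at day 20 in neo-epithelium. It was higher in 9 of 9 mice (3.78 ± 0.48 (SE), adjusted p = 6.5e-05), but the anus of uninjured mice held a median of 769 TPM and against it the difference was -0.76 (adjusted p = 0.583). Krt7, a keratin of transitional and ductal epithelium, behaved otherwise: its neo-epithelial level of 899.7 to 1360.4 TPM did not overlap that of the paired anus, 90.4 to 683 TPM, and its median was 169 TPM in rectum and 219 TPM in uninjured anus, against which it was also higher (2.23, adjusted p = 1.65e-07). Krt19 ranged between 1547 and 3641 TPM in neo-epithelium (median 2750.3) and between 94.2 and 1258 TPM in anus (median 853). Cldn7, a tight junction claudin, differed by 2.33 ± 0.18 (SE), adjusted p = 1.7e-06, Krt20, of differentiated gut epithelium, by 1.78 ± 0.09 (SE), adjusted p = 3.6e-08, and the adhesion molecule Epcam by 1.72 ± 0.17 (SE), adjusted p = 8.9e-06.

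Colonocyte and goblet cell genes were mostly higher over the 9 mice, by amounts that ranged widely between mice, but few were called at day 9. In the colonocyte list 13 of 15 genes were higher and 1 lower, with a median of 2.78, where 38.8% and 19.1% of all genes tested were. By day, 1 was called higher at day 9, 12 at day 14 and 13 at day 20, where 25.9%, 26.6% and 15.3% of all genes tested were. The summed level was above the anal one in 8 of 9 mice. The list summed to 23.3 to 624.6 TPM in neo-epithelium at day 9, 735 to 7622 TPM at day 14 and 3699 to 9312 TPM at day 20, with mice 14, 17 and 19 highest. The anal sums were 44.8 to 65.9, 49.4 to 351 and 207 to 1759.9 TPM on those days, the rectal sums 7142 to 19055 TPM over the 3 days, and the uninjured anal sums 1799 to 5714 TPM. Car1, a colonic carbonic anhydrase, differed by 3.24 ± 0.63 (SE), adjusted p = 0.0013 and Lgals4, a gut galectin, by 2.78 ± 0.63 (SE), adjusted p = 0.0032. Of 8 goblet cell genes 7 were higher (median 2.21), among them Muc2, the gel-forming mucin of the colon (2.43 ± 0.53 (SE), adjusted p = 0.0025), and Zg16, a mucus lectin (2.74 ± 0.78 (SE), adjusted p = 0.011). At day 9, 1 goblet gene was called higher and 1 lower, and at days 14 and 20 it was 6 higher on each day. Leaving out mice 14, 17 and 19 left 4 of 8 goblet genes higher and ended the call of Zg16 (adjusted p = 0.0638). Against the uninjured anus no colonocyte gene was higher and 1 was lower (median -1.11), and 1 goblet gene was higher (median -0.08).

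Most tested intestinal transcription factors and posterior Hox genes were higher than in the paired anus. Hnf4a and Cdx1, which specify intestinal epithelium, differed by 2.40 ± 0.42 (SE) and 2.03 ± 0.38 (SE). Of 14 factors 5 passed the filter, and 4 of these were higher, where 38.8% of all genes tested were. However, 2 of the 5 reached 1 TPM in under 5 anal libraries, so the filter bears on their direction. By day, 0 of the 5 were called higher at day 9, 4 at day 14 and 2 at day 20, where 25.9%, 26.6% and 15.3% of all genes tested were. Against the uninjured anus none of the 5 was called and their median was -0.48. Among 12 posterior Hox genes 8 were higher and 2 lower, where 38.8% and 19.1% of all genes tested were. Of the 12, 1 reached 1 TPM in under 5 anal libraries and 1, Hoxc10, in no neo-epithelial library. Hoxb13, of the hindgut and perineal region, ranged between 5.56 and 65.2 TPM in neo-epithelium (median 15.5) and between 1.22 and 14.3 TPM in anus (median 3.49), and the paralogues Hoxd13 and Hoxa13 differed by 1.56 ± 0.15 (SE) and 1.35 ± 0.14 (SE). Against uninjured anus, 2 of 12 were higher and 2 lower, where 28.1% and 14.2% of all genes tested were, and Hoxb13 turned to -1.04 (adjusted p = 0.163). Hoxc10 was lower than in both the paired and the uninjured anus: it stood at 1.47 to 4.23 TPM in anus and at 0 to 0.0299 TPM in neo-epithelium, listed at 0 in 8 of 9 libraries, and its rectal median was 0. It passed the filter through the anal libraries alone, which sets its direction beforehand, so its levels are given as a description only.

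Genes of the attachment to the basement membrane were mostly higher, and those of desmosomes, which join cell to cell, mostly lower. Lama3 and Lamb3, laminin chains of the epithelial basement membrane, were higher without overlap: Lama3 ranged between 42.2 and 111 TPM in neo-epithelium (median 54.9) and between 7.29 and 24.7 TPM in anus (median 12.8), and Lamb3 differed by 1.91 ± 0.12 (SE), adjusted p = 2.4e-07. The laminin receptor subunits Itga6 and Itgb4 differed by 1.06 ± 0.15 (SE) and 1.37 ± 0.15 (SE), and Cd151, a tetraspanin partner of that integrin, by 0.54 ± 0.09 (SE). Col17a1, the hemidesmosome collagen of skin, gave -0.24 (adjusted p = 0.24) and was called lower with TMM factors (-0.42, adjusted p = 0.029). In all, 7 of 10 hemidesmosome and basement membrane genes were higher and none lower (median 0.86). Against the uninjured anus 4 were higher, and Itgb4 was not called (adjusted p = 0.128).

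Of 13 desmosome genes 4 were higher and 8 lower. Pkp2 and Dsg2, the plakophilin and desmoglein of simple epithelia, were higher (1.69 ± 0.17 (SE) and 1.96 ± 0.19 (SE)), as was Dsg3, the desmoglein of basal and mucosal squamous cells (0.58 ± 0.14 (SE)). Pkp1, the plakophilin of stratified epithelia, was lower (-0.85 ± 0.10 (SE)), and so were Perp (-0.72 ± 0.08 (SE)) and the epidermal cadherins Dsg1a (-4.21 ± 0.15 (SE)) and Dsc1 (-4.02 ± 0.19 (SE)). Dsg1a shares sequence with its paralogues, which makes its level uncertain. The summed desmosome level was lower in all 9 mice and did not overlap. Pkp2 and Dsg2 were not called against uninjured anus (adjusted p = 0.396 and 0.605).

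Wound and stress genes of keratinocytes were mostly higher over the 9 mice and at day 9. Of 23 tested, 13 were higher and 1 lower (median 0.89). At day 9, 17 were called higher (median 2.02), and at days 14 and 20 it was 6 on each day (medians 0.44 and 0.49), where 25.9%, 26.6% and 15.3% of all genes tested were. Krt6a, a keratin induced in wounded and hyperproliferative epithelium, ranged between 3331 and 6736 TPM in neo-epithelium (median 4999.7) and between 1894 and 3613 TPM in anus (median 2219) and was higher in 9 of 9 mice (0.92 ± 0.15 (SE), adjusted p = 4.0e-04), with the reservation that it is near-identical to Krt6b (0.23, adjusted p = 0.083). Mmp10 and Mmp9, matrix metalloproteinases, differed by 3.43 ± 0.49 (SE), adjusted p = 1.6e-04 and 2.34 ± 0.42 (SE), adjusted p = 7.9e-04, and Plaur, the urokinase receptor, by 1.60 ± 0.34 (SE), adjusted p = 0.0022. The epidermal growth factor receptor ligands Areg, Ereg and Tgfa differed by 1.40 ± 0.32 (SE), 0.89 ± 0.26 (SE) and 0.70 ± 0.12 (SE), and Tnc, a matrix glycoprotein of healing tissue, by 0.92 ± 0.21 (SE). Sprr1b, an envelope precursor of cornifying cells, was the member that was lower (-4.93 ± 0.46 (SE), adjusted p = 6.5e-06).

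Every one of the 20 cell cycle genes was higher in neo-epithelium over the 9 mice, with a median of 0.98. Mki67, expressed in cycling cells, ranged between 15.7 and 29.1 TPM in neo-epithelium (median 22.4) and between 3.58 and 15.2 TPM in anus (median 11.6), with no overlap. Cdk1, the mitotic kinase, and its partner Ccnb1 differed by 1.41 ± 0.25 (SE), adjusted p = 6.9e-04 and 1.48 ± 0.29 (SE), adjusted p = 0.0012. By day, 19 genes were called higher at day 9 (25.9% of all genes tested were), 17 at day 14 (26.6%) and 0 at day 20 (15.3%), with medians of 1.55, 1.04 and 0.45. The list summed to 1416 to 1506 TPM in neo-epithelium at day 9 and 553 to 616 TPM at day 20, against 277 to 691 and 408 to 472 TPM in anus. In the rectum of the same mice it summed to 1305.5 to 1437 TPM at day 9 and 289 to 687 TPM at day 20. The change of the neo-epithelium to anus difference from day 9 to day 20 was itself called for 4 of the 20. All 4 went toward a smaller difference, where 3.96% of all genes tested fell. Mcm7, a subunit of the replicative helicase, was 1 of them (-1.59 ± 0.37 (SE), adjusted p = 0.043).

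Neutrophil and acute inflammation genes were higher, most of all at day 9. Of 17 tested, 15 were higher and none lower over the 9 mice (median 2.10). All 17 were called higher at day 9 (median 3.61), 6 at day 14 (1.31) and 3 at day 20 (1.11). On those days 25.9%, 26.6% and 15.3% of all genes tested were higher, so the day 20 count is near the background. S100a9, a calprotectin subunit that neutrophils carry in bulk, stood at 3329, 7704 and 8481 TPM at day 9, 877, 1566 and 2116 TPM at day 14, and 258, 558 and 3365 TPM at day 20 in neo-epithelium and at 311, 337 and 1307 TPM at day 9, 459, 771 and 2494 TPM at day 14, and 284, 657 and 1223 TPM at day 20 in anus. The sections thus separated at day 9 and overlapped later, and the call over 9 mice (1.49 ± 0.55 (SE), adjusted p = 0.036) was lost with TMM factors (adjusted p = 0.0701). Cxcl5 and Cxcl1, chemokines that attract neutrophils, differed by 2.42 ± 0.49 (SE), adjusted p = 0.0015 and 1.94 ± 0.36 (SE), adjusted p = 8.6e-04. Il1b, a pro-inflammatory cytokine of myeloid cells, differed by 2.37 ± 0.65 (SE), Nos2, the inducible nitric oxide synthase, by 3.07 ± 0.45 (SE), and Csf3r, the neutrophil growth factor receptor, by 2.36 ± 0.44 (SE). The list summed to 15927 to 20029 TPM in the rectum of the day 9 mice, within the 11859.6 to 27248 TPM of their neo-epithelium.

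The interferon-stimulated list had 11 of 12 genes higher and none lower (median 1.57). Irf7, a factor that amplifies the interferon response, ranged between 11.2 and 131 TPM in neo-epithelium (median 56.2) and between 4.61 and 33.4 TPM in anus (median 20.4) and was higher in 9 of 9 mice (1.86 ± 0.12 (SE), adjusted p = 3.8e-07). Isg15, an interferon-induced modifier, and Cxcl9, a chemokine for T cells, differed by 1.79 ± 0.36 (SE), adjusted p = 0.0014 and 2.06 ± 0.47 (SE), adjusted p = 0.0034. Mouse 11 held the lowest sum of the list in both sections, 54.6 TPM in neo-epithelium against 29.2 TPM in anus. Against the uninjured anus 5 of 12 were higher, where 28.1% of all genes tested were. At day 20, 2 of 12 were called higher, near the 15.3% of all genes tested.

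Other immune lists had smaller medians than the neutrophil and interferon ones. Of 6 MHC class II genes 2 were higher (median 0.25), near the 38.8% and the median of 0.18 of all genes tested. None was higher with TMM factors, and Cd74, the class II chaperone, gave 0.26 (adjusted p = 0.092). Of 8 T cell genes 3 were higher and 2 lower, a share of higher genes near the background of 38.8%, and the summed T cell level was above the anal one in 1 of 9 mice. Trac, the T cell receptor alpha constant gene, had the largest difference of the list (1.23 ± 0.30 (SE), adjusted p = 0.0045). All 3 tested B and plasma cell genes were higher, Jchain, of secreted immunoglobulin, at 1.41 to 606 TPM against 0.0991 to 172 TPM. Among 11 macrophage and dendritic cell genes, 2 were higher and 3 lower, where 38.8% and 19.1% of all genes tested were. Itgax, a dendritic cell integrin, was higher (1.08 ± 0.13 (SE), adjusted p = 3.4e-05), whereas Cd207, the langerin of epidermal Langerhans cells, was lower (-1.02 ± 0.15 (SE), adjusted p = 1.7e-04).

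Of 10 tested antimicrobial genes, 7 were lower and 3 higher, where 19.1% and 38.8% of all genes tested were. Of the 10, 3 reached 1 TPM in under 5 neo-epithelial libraries, so the filter bears on their direction. Among all 15 members of the list, 8 had a lower mean and 6 a higher one. Wfdc12, a whey acidic protein of skin, was at 0 to 2.02 TPM in neo-epithelium against 25.7 to 146 TPM in anus, and Defb4, an inducible beta-defensin, differed by -5.54 ± 0.57 (SE), adjusted p = 1.5e-05. Slpi, a secreted protease inhibitor, ranged between 118 and 673 TPM in neo-epithelium (median 288) and between 481 and 1597 TPM in anus (median 1359.6). The 3 higher genes were Pglyrp1, a peptidoglycan recognition protein (2.62 ± 0.23 (SE), adjusted p = 3.9e-06), Pigr, which carries immunoglobulin A across columnar epithelium (2.47 ± 0.32 (SE), adjusted p = 7.3e-05), and Wfdc2. Wfdc2, a whey acidic protein of mucosal and airway epithelium, was at 1279 to 2743 TPM against 119 to 1184 TPM without overlap, and its rectal and uninjured anal medians were 417 and 206 TPM. Pigr turned to -1.26 against uninjured anus (adjusted p = 0.449).

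Over the 9 mice, every tested gene of the signalling lists differed by less than 1 on the log2 scale, whereas on single days the Hedgehog and Wnt list reached 1.26 and -1.05. In the Notch list, 2 of 10 were higher and 3 lower, with Notch3, a receptor of basal and mural cells, at -0.71 ± 0.13 (SE), adjusted p = 8.1e-04. Of 10 Hedgehog and Wnt genes 2 were higher and 4 lower: Lgr6, a stem cell receptor of skin, was higher (0.72 ± 0.19 (SE), adjusted p = 0.0082), and the ligand Wnt4 (-0.89 ± 0.10 (SE), adjusted p = 3.7e-05) and the Wnt target Axin2 (-0.65 ± 0.12 (SE), adjusted p = 7.1e-04) were lower. Among all genes tested, 38.8% were higher and 19.1% lower. No endothelial gene of 10 was called (median -0.04).

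Among the 12 largest rises with the same sign in all 9 mice were Krt8, Krt18, Agr2, Nos2 and Mmp10, already in the lists, and 7 further genes. Ly6g, a neutrophil surface antigen, was at 19.9 to 429 TPM in neo-epithelium against 1.16 to 44.2 TPM in anus (3.86 ± 0.50 (SE), adjusted p = 7.7e-05). Its rectal median was 782 TPM and its uninjured anal median 113 TPM, where Csf3r was at 0.265 TPM, and against uninjured anus it was not called (adjusted p = 0.719). Cd177, a neutrophil surface protein, differed by 3.22 ± 0.34 (SE), adjusted p = 1.6e-05, and that call was likewise lost (adjusted p = 0.0536). Ubd, an interferon-inducible ubiquitin-like protein, Ido1, a tryptophan-degrading enzyme, Pla2g10, a secreted phospholipase, and Misp, a spindle-positioning protein, differed by 3.14 ± 0.35 (SE), 2.96 ± 0.36 (SE), 3.07 ± 0.46 (SE) and 2.96 ± 0.18 (SE). Pla2g10 turned to -0.98 against uninjured anus (adjusted p = 0.488).

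Calca, which encodes calcitonin and the neuropeptide CGRP (chr7:114631478-114636357, minus strand), was low in both neighbouring tissues. It stood at 35.3, 38.9 and 51.1 TPM at day 9, 13.2, 22.6 and 22.6 TPM at day 14, and 11.6, 12.6 and 12.8 TPM at day 20 in neo-epithelium. In anus it stood at 0.38, 1.44 and 5.60 TPM at day 9, 0.821, 0.822 and 1.19 TPM at day 14, and 1.32, 1.58 and 5.95 TPM at day 20. Its difference was 3.07 ± 0.32 (SE), adjusted p = 1.5e-05, with no overlap, while the rectal median was 0.826 TPM and the uninjured anal median 0.24 TPM. The neo-epithelial day 9 mice were the 3 highest.

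**Figure D4:**
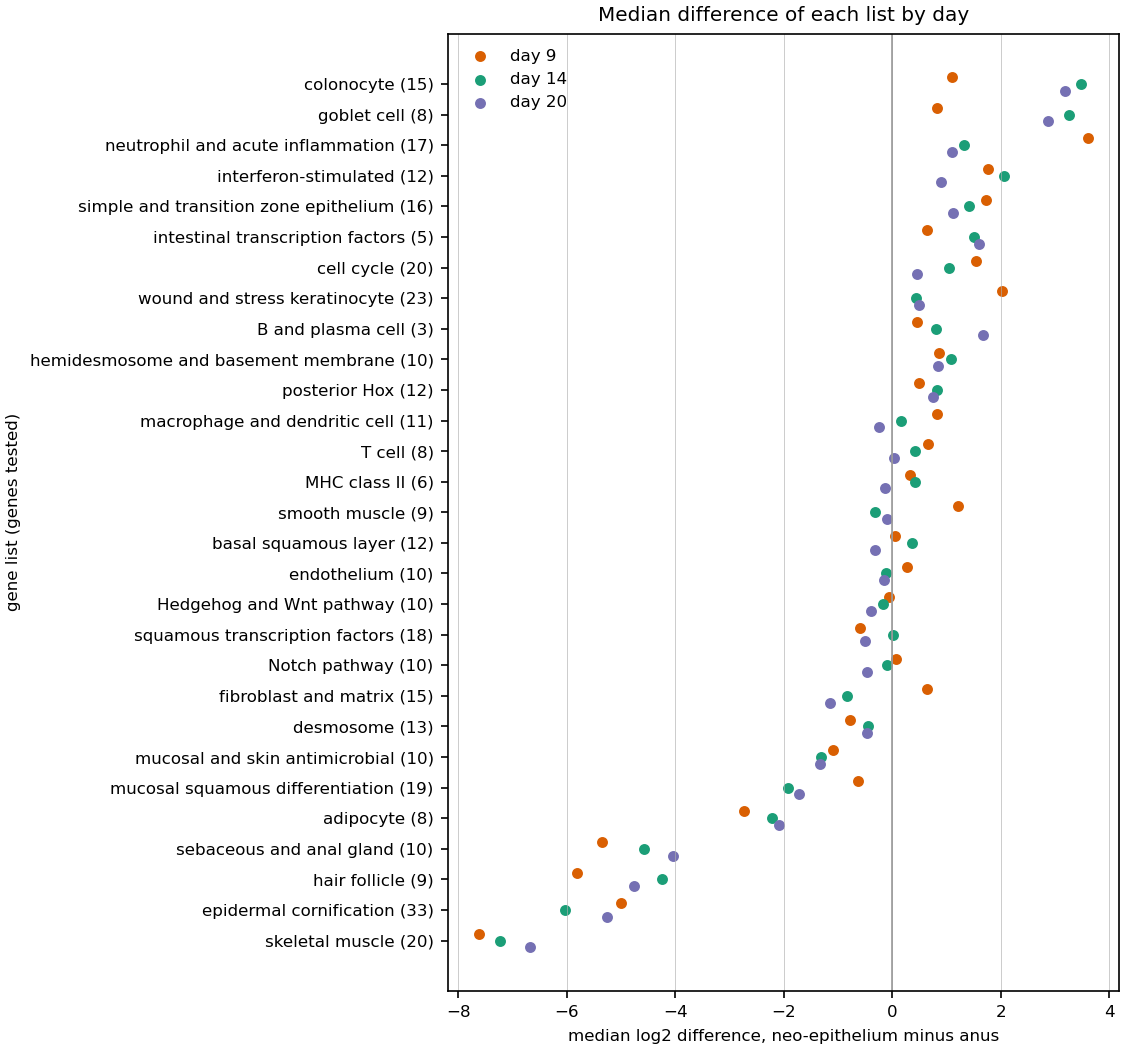
Median log2 difference, neo-epithelium minus anus, of each gene list at day 9 (orange), day 14 (green) and day 20 (purple), with the number of genes tested in brackets. Neutrophil, wound and fibroblast lists lie farther to the right at day 9 than at day 20, colonocyte and goblet lists farther to the left, and skeletal muscle and epidermal lists stay below -4.9 on all 3 days.

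The paired difference changed with time for a small part of the genes. At day 9, 5186 genes were called (39.1%), at day 14 5242 (39.5%) and at day 20 3759 (28.4%). At day 14 the calls were 3525 higher and 1717 lower and at day 20 2030 higher and 1729 lower, and with TMM factors this balance turned to 2252 higher and 2650 lower and to 2023 higher and 2252 lower. At day 9 it went from 3437 higher and 1749 lower to 2636 and 2596. The change from day 9 to day 20 was called for 763 genes (5.76%), 238 of them (1.8%) toward a higher value in neo-epithelium and 525 (3.96%) toward a lower one, or 374 and 485 with TMM factors. With no filter on low values it was 304 genes, and without mouse 11 it was 163. The moderated F-test over the 3 days called 265 genes (2%), and without mouse 13 it called 8 and without mouse 11 it called 24. The genes below are given with the number of 9 fits, each without 1 mouse, in which their call held.

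Inflammation and matrix remodelling genes differed less at day 20 than at day 9. Mmp13, a collagenase, stood at 30.4, 50.8 and 72.2 TPM at day 9, 8.09, 10.7 and 11.4 TPM at day 14, and 7.34, 9.41 and 12.0 TPM at day 20 in neo-epithelium. Its anal mean was 0.283 TPM at day 9 and 4.96 TPM at day 20, so the sections were closer on the later day. The paired difference was 5.28 at day 9, 2.17 at day 14 and 0.95 at day 20, a change of -4.33 ± 0.35 (SE), adjusted p = 0.002, called in 9 of 9 fits. Saa3, an acute-phase apolipoprotein, had differences of 4.43 at day 9, 1.72 at day 14 and 1.05 at day 20 and Mmp10 of 5.51 at day 9, 3.14 at day 14 and 1.64 at day 20, both also called in 9 of 9. Il1rl1, the interleukin-33 receptor, changed by -3.86 ± 0.42 (SE), adjusted p = 0.0053, in 9 of 9, and Chil3, a chitinase-like protein of activated macrophages, by -3.53 ± 0.67 (SE), adjusted p = 0.022, in 5 of 9. Of 17 neutrophil and inflammation genes 5 fell in this test, and of 23 wound genes 8, where 3.96% of all genes tested fell.

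**Figure D5:**
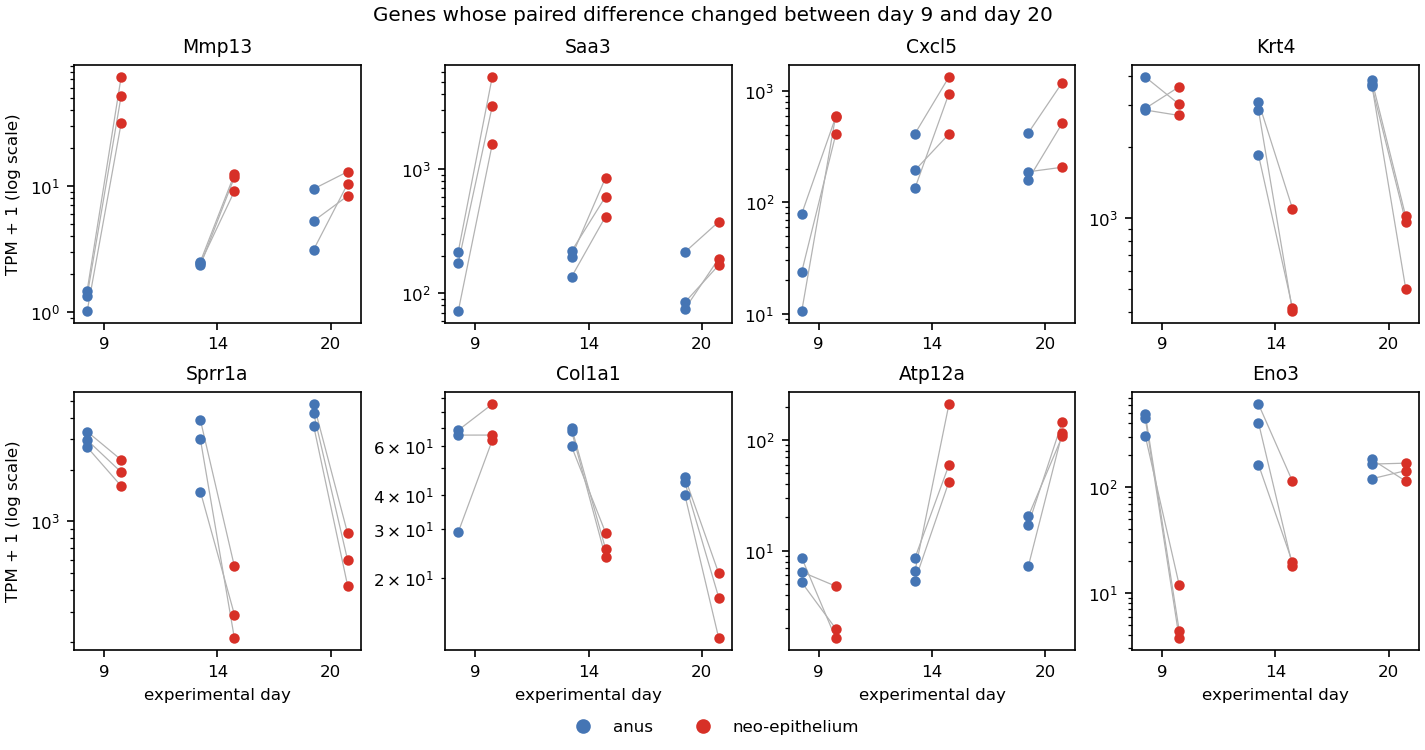
TPM + 1 (log scale) in anus (blue) and neo-epithelium (red) at days 9, 14 and 20 for 8 genes whose paired difference changed between day 9 and day 20. Lines join the sections of 1 mouse. Mmp13, Saa3 and Cxcl5 converge with time, Krt4 and Col1a1 overlap at day 9 and lie below the anal level later, Sprr1a lies below it on all 3 days, and Atp12a and Eno3 have their lowest neo-epithelial values at day 9.

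Of 19 mucosal squamous genes 4 fell in this test, none rose and 15 were not called, and of 33 epidermal genes 2 fell (median change -0.27). Among all genes tested 3.96% fell, so the epidermal count is near the background. Krt4, the mucosal type II keratin and partner of Krt13, stood at 2715, 3025 and 3590.0 TPM at day 9, 403, 416 and 1096 TPM at day 14, and 502, 963 and 1015 TPM at day 20 in neo-epithelium and at 2863, 2906 and 3949.7 TPM at day 9, 1847, 2855 and 3098 TPM at day 14, and 3618, 3682 and 3839 TPM at day 20 in anus. The day 9 values overlapped and the later ones did not, and the difference changed by -2.18 ± 0.37 (SE), adjusted p = 0.014, called in 8 of 9 fits and lost without mouse 11. Sprr1a, a cornified envelope precursor, gave -0.64 at day 9, -3.00 at day 14 and -2.80 at day 20, called in 9 of 9. Sprr3, its oesophageal relative, gave -0.73 at day 9, -6.50 at day 14 and -4.68 at day 20, but that call held in 2 of 9. Krt13 changed by -1.08 ± 0.24 (SE), adjusted p = 0.034, in 4 of 9. Wfdc21, a whey acidic protein, changed by -4.39 ± 0.92 (SE), adjusted p = 0.03, in 5 of 9.

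Stromal genes were more often higher at day 9 and more often lower later. Col1a1, fibrillar collagen I, stood at 62.1, 64.9 and 84.4 TPM at day 9, 22.8, 24.5 and 28.2 TPM at day 14, and 11.1, 15.9 and 19.7 TPM at day 20 in neo-epithelium and at 28.3, 64.9 and 67.7 TPM at day 9, 59.0, 67.3 and 69.1 TPM at day 14, and 39.1, 43.5 and 45.4 TPM at day 20 in anus. Its difference was 0.47 at day 9, -1.34 at day 14 and -1.43 at day 20, and it changed by -1.90 ± 0.30 (SE), adjusted p = 0.013. That of Dcn, a matrix proteoglycan, changed by -1.97 ± 0.26 (SE), adjusted p = 0.0083, and both changes were called in 9 of 9 fits. Of 15 fibroblast and matrix genes, 8 were called higher in neo-epithelium at day 9, where 25.9% of all genes tested were. At both day 14 and day 20, 9 were called lower, where 13% of all genes tested were. Between day 9 and day 20, 10 of the 15 fell, where 3.96% of all genes tested did. Thy1, a fibroblast and nerve surface protein, was lower throughout (-1.42 at day 9, -1.89 at day 14 and -1.98 at day 20). Over the 9 mice 1 of 15 was higher and 4 lower, which became 8 lower with TMM factors or without mouse 11 and 2 lower without mouse 15. Of 11 macrophage genes 6 fell as well, Csf1r, the receptor for macrophage growth factor, by -1.28 ± 0.23 (SE), adjusted p = 0.018, in 5 of 9.

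Of the 6 genes with the largest rise in the difference, several belong to columnar epithelium. Atp12a, the non-gastric proton pump of the colon, stood at 0.627, 0.988 and 3.80 TPM at day 9, 41.2, 58.6 and 209.5 TPM at day 14, and 107, 115 and 145 TPM at day 20 in neo-epithelium, and its difference was -1.41 at day 9, 3.58 at day 14 and 3.16 at day 20, called in 9 of 9 fits. Slc15a1, a peptide transporter, gave -2.21 at day 9, 0.84 at day 14 and 2.18 at day 20 (9 of 9), Fcgbp, a mucus protein, -4.07 at day 9, 1.01 at day 14 and 1.43 at day 20 (8 of 9), and Adh1, an alcohol dehydrogenase, -3.71 at day 9, -0.79 at day 14 and 0.91 at day 20 (5 of 9). Eno3, the muscle enolase, gave -6.13 at day 9, -3.32 at day 14 and -0.13 at day 20 (9 of 9), and its rectal median of 167 TPM was of the same order as its neo-epithelial level at day 20. Fa2h, a fatty acid hydroxylase of skin and gut, gave -6.38 at day 9, -3.61 at day 14 and -1.88 at day 20 (5 of 9). Colonocyte sums in neo-epithelium were higher at days 14 and 20 than at day 9, as given above, and their part in these changes was not tested. Of 15 colonocyte genes, 1 rose in this test and none fell, where 1.8% and 3.96% of all genes tested did.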

How the data were processed

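Bulk RNA of dissected sections was sequenced as stranded, single-end mRNA libraries. The submitters' processing notes name CASAVA, kallisto and mm10, and versions are not given in the sources used here. The authors deposited 1 table of TPM values per Ensembl transcript, other values such as counts not being used here. Its 37344 empty rows and 1318 repeated rows were dropped, which left 88198 transcripts, and each column then summed to 1000000. TPM was summed per Ensembl gene, and 1284 transcripts with no gene were left out. Without counts the depth is unknown, and only the spread between mice gives the precision.

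log2(TPM + 1) was fitted with limma 3.58.1 (trended variance, R 4.3.3) on 18 libraries, for 13256 genes at 1 TPM or more in at least 9 of them, with the mouse as a block, and contrasts per day, between days 20 and 9, and an F-test over the 3 days. The authors' labels place both sections in the same animal, which gives the pairing. The correlation of their deviations from day means averaged 0.166 and was above 0 in 7 of 9 mice. TMM factors (trimmed mean of M values) were computed by their formula, as a rescaling of the deposited values with no count test. The procedure was tested on simulated data. Coordinates are from GENCODE vM21 (GRCm38) and promoters from RefSeq.

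The lists and members were chosen with earlier results of these data known. Genes named beyond them were the 12 largest rises and 12 largest falls called with 1 sign in 9 of 9 mice, and the 6 largest rises and falls of the day 20 to day 9 contrast. Alternatives were another pseudocount, other filters, TMM factors, no block, leaving out mice, other rescalings and the uninjured anus as reference. Leaving out mice 14, 17 and 19 together and the rescaling without epidermal, hair, sebaceous, colonocyte and goblet genes were chosen after seeing the data.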

Additional observations from a re-analysis of the deposited data

Results flagged for a closer look

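Among 160 named genes, 8 had 1 mouse whose paired log2 difference stood apart from the other 8 mice, and chance alone sets about 1 in 20 groups apart in this way. These were Klf5 in mouse 13 (-0.30), Lgals4 in mouse 12 (-2.22), Cxcl10 in mouse 13 (6.37), Trac in mouse 15 (3.69), Des in mouse 19 (-0.44), Perp in mouse 15 (-0.20), Car3 in mouse 16 (-3.68) and Mb in mouse 16 (-6.09).

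For 29 of these genes the difference between neo-epithelium and anus itself changed from day 9 to day 20, at an adjusted p under 0.05 in limma. Squamous and simple keratinocyte genes fell: Krt13 (-1.08), Krt4 (-2.18), Sprr3 (-3.95), Sprr1a (-2.16) and Krt7 (-1.85). So did wound and inflammation genes: Mmp10 (-3.87), Mmp13 (-4.33), Areg (-1.81), Ereg (-1.67), Fosl1 (-1.62), Cxcl1 (-2.41), Cxcl5 (-3.17), Saa3 (-3.38), Il1rl1 (-3.86), Chil3 (-3.53) and Wfdc21 (-4.39). Mcm7 (-1.59), Csf1r (-1.28), Col1a1 (-1.90) and Dcn (-1.97) fell as well. The difference rose for Fcgbp (5.50), Adh1 (4.62), Atp12a (4.57), Slc15a1 (4.39) and Mzb1 (1.55). Those of Fcgbp, Adh1, Atp12a and Slc15a1 went from below 0 at day 9 to above 0 at day 20. Fcgbp (-4.07 to 1.43) and Adh1 (-3.71 to 0.91) ended nearer to 0 than they began. For Eno3 (6.00), Fa2h (4.50), Acta1 (3.07) and Awat1 (1.76), which are lower in neo-epithelium over the 9 mice, the rise was toward a smaller difference.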

How the results depend on the processing

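Requiring a 2-fold difference as well left 2100 of the 7667 genes called over the 9 mice. Day 14 fitted on its own 6 samples called 3415 genes. With no filter on low values the day 20 to day 9 contrast called 304 genes and the F-test 48. Leaving out 1 mouse gave 6934 to 7555 genes over the 9 mice, 3071 to 5562 at day 9, 3088 to 5444 at day 14, 2402 to 4101 at day 20, 163 to 975 for the day 20 to day 9 contrast and 8 to 356 for the F-test. The counts fell by over 1.5 times without mouse 11 or 12 at day 9, 15 or 16 at day 14, 17 at day 20, and for the contrast without 11, 12, 13, 17, 18 or 19. Without the block for the mouse, the counts were 7921, 5241, 5202, 3777, 539 and 192 in the same order. Against uninjured anus 5615 genes (42.4%) were called.

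Of 3120 values of named genes, differences and their changes by day, 2962 kept direction and call, 112 lost the call, 28 gained it and 18 changed sign. Against uninjured anus these were Trp63 (0.48), Krt13 (0.52), Krt8 (-0.76), Car1 (-1.66), Lgals4 (-1.37), Hnf4a (-1.17), Cdx1 (-1.16), Hoxb13 (-1.04), Pigr (-1.26), Pla2g10 (-0.98), Atp12a (-1.80) and Slc15a1 (-1.67). Leaving out 1 mouse, Krt13 ranged from -0.20 to 0.0087 (without mouse 19), Slc15a1 from -0.030 (without mouse 14 or 19) to 0.66, and Fcgbp from -0.93 to 0.088 (without mouse 12). Krt13 was 0.16 without mice 14, 17 and 19. Slc15a1 was -0.80 without those 3 mice. The cause was not tested. Depth is unknown, so values near 0 TPM have no counting error attached.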
